A study of Danio rerio with 6 samples.

Results

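The 6 genes aanat1, aanat2, asmt, exorh, otx5 and crx were followed in zebrafish larvae exposed to Lurasidone. They were chosen by name, as the melatonin-synthesizing enzymes, the opsin and the transcription factors of the pineal gland. All 6 were found among the 39214 genes of the deposited table. The genes crx and otx5 are also transcribed in the retina. RNA was sequenced from 3 control libraries and 3 Lurasidone libraries, all from AB wild-type larvae at 5 dpf (days post-fertilization) kept in fish water. According to the sample labels, the Lurasidone group had received 4 mg/L of the drug, an antipsychotic that blocks dopamine and serotonin receptors, and the control group carried the solvent dimethyl sulfoxide according to the methods. The exposure began at 3 hpf (hours post-fertilization) in the sample labels and at 5 hpf in the methods. The larvae were wild type, so no transgene or mutation separated the groups. According to the methods the larvae saw a daily cycle of light and dark, and both whole larvae and brain tissue are given there as the RNA source. The clock time of collection was not given in the sources used here.

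The zebrafish pineal gland lies at the top of the brain and holds photoreceptor cells that sense light directly and release melatonin at night. Melatonin is made from tryptophan through serotonin. Tryptophan hydroxylase and aromatic amino acid decarboxylase form serotonin, arylalkylamine N-acetyltransferase (AANAT) acetylates it, and acetylserotonin O-methyltransferase (ASMT) adds the last methyl group. Zebrafish have an AANAT gene used mainly in the retina, aanat1, and another used mainly in the pineal, aanat2, whose activity follows the circadian clock. The pineal photoreceptors carry exo-rhodopsin, encoded by exorh, in place of the rhodopsin of retinal rods. Homeodomain proteins of the OTX family, among them the products of otx5 and crx, switch on photoreceptor genes in both pineal and retina.

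The values were deposited as FPKM, fragments on a gene scaled to its length and to library size. Between 11749887 and 15107664 fragments per library lay on genes, read back from FPKM and gene length. The defining pineal genes exorh, aanat2 and asmt were present in all 6 libraries. Others were low or not found: bsx lay between 0.0766 and 1.26 FPKM, parapinopsina between 0 and 0.350 FPKM, and the symbol agrp2 was not matched in the table. RNA of other larval tissues was plentiful: the muscle gene actc1b lay between 5598 and 9489 FPKM, the skin gene krt4 between 119 and 331 FPKM, the pancreatic prss1 between 721 and 1296 FPKM and the hepatic fabp10a between 90.3 and 236 FPKM. Of the 20 markers of these tissues and of lens, blood, gut and cartilage, mylpfa (at most 0.255 FPKM) and krt5 (at most 0.395 FPKM) were near 0, although other muscle and skin genes were high. In such bulk RNA, fewer cells of a type and less RNA per cell cannot be told apart.

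Lurasidone larvae held less crx RNA and less exorh RNA than control larvae. The mean of crx was 2.94 times as high in the control group as in the Lurasidone group, and that of exorh 2.24 times. The mean of asmt differed by a similar factor, 2.26, and that of otx5 by 1.55, and neither passed the test over all genes. The AANAT genes differed least, and the groups overlapped for aanat2. Log2(FPKM + 1) was compared with limma over the 23409 genes that reached 0.5 FPKM in 3 or more libraries, and a gene passed when its p, adjusted by Benjamini-Hochberg, was at most 0.05. Of the 6 genes, 2 passed the test with lower values, against 3.9% of all tested genes, and 0 with higher values, against 5.79%. At an unadjusted p of at most 0.05, 4 genes were lower and 0 were higher. The share of all tested genes at that unadjusted p was not counted, here or for the other genes below. Such counts therefore have no background to be set against, and they do not show an excess. For otx5, an unadjusted p of 0.0469 in limma gave an adjusted p of 0.171. All 6 log2 fold changes were below 0, as were 12075 of the 23409 tested genes. Their median was -0.82, beside -0.02 over all tested genes. In 5 of the 6 genes every Lurasidone library lay below every control library, which held for 16.2% of all tested genes. Limma's voom on the fragments, which weights each value by its depth, also called 2 of the 6 lower, against 3.81% of 31117 genes, and 0 higher. Fold changes on the FPKM + 1 scale understate the change of low genes, here exorh, asmt, aanat1 and aanat2. Each p-value sets the difference of the groups against the spread between these libraries, which limma moderates with that of all tested genes.

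**Figure D1:**
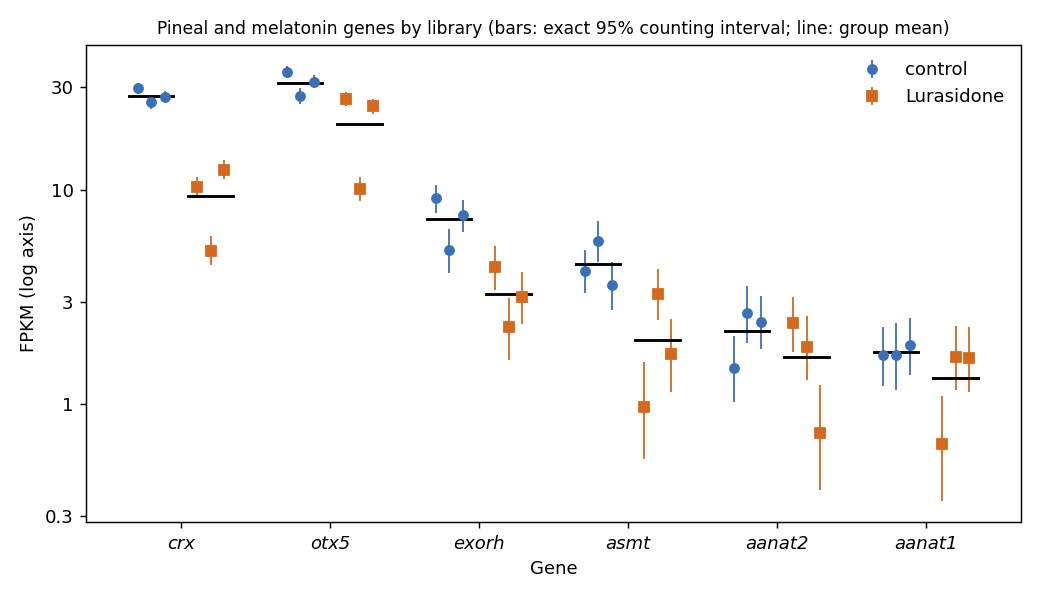
FPKM (log axis) of the 6 genes in each library. Points are libraries of the control and Lurasidone groups, vertical bars are exact 95% counting intervals and horizontal lines are group means of 3 libraries. The crx points of the groups lie far apart (control 25.6 to 29.6, Lurasidone 5.20 to 12.4 FPKM), while those of aanat2 are mixed.

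Of the transcription factors, crx is the cone-rod homeobox gene, which activates opsin and other photoreceptor genes. It lies on chromosome 5 at 36932718 to 36936443 on the plus strand (GRCz11). Its level was 29.6, 25.6 and 26.9 FPKM in the control libraries, from 1085, 716 and 931 fragments. In the Lurasidone libraries it was 10.3, 5.20 and 12.4 FPKM, from 328, 166 and 391 fragments. The highest Lurasidone value lay 13.2 FPKM under the lowest control value, a gap wider than the range within either group. The group means were 27.4 ± 2.04 and 9.30 ± 3.70 FPKM (SD, n = 3). The log2 fold change in limma was -1.53 (SE 0.26, 95% interval -2.12 to -0.95, Benjamini-Hochberg adjusted p = 0.0088), so crx fell. It was the only one of the 6 genes that passed in limma on log2(FPKM + 1) with a log2 fold change of -1 or lower, as did 1.22% of all tested genes. On log2(FPKM + 0.1) exorh did so too (-1.15, limma adjusted p = 0.0389), as it did in voom (-1.19, adjusted p = 0.0285). The gene crx passed under all 16 alternatives, each single library left out included, with limma adjusted p between 0.00021 and 0.0466. An antisense gene, BX927323.1, overlaps crx on the other strand and held 1, 1 and 3 fragments in the control libraries, against 0 in each Lurasidone library. Whether antisense fragments within the overlap were counted on crx cannot be told, since the use of strand in counting was not given.

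The gene otx5, whose product is needed in zebrafish for the rhythmic expression of pineal genes, lies on chromosome 15 at 47903864 to 47909281 on the plus strand. It was the most abundant of the 6 per length, with 35.2, 27.3 and 31.8 FPKM in the control libraries. The Lurasidone libraries held 26.5, 10.1 and 24.4 FPKM. Only the second Lurasidone library stood well below the others. The first Lurasidone library, with a counting interval of 24.4 to 28.6 FPKM, overlapped the second control library, with 25.1 to 29.7 FPKM. The means were 31.5 ± 3.97 and 20.3 ± 8.91 FPKM (SD, n = 3). The log2 fold change, -0.71 (SE 0.31, 95% interval -1.40 to -0.01), did not pass in limma (adjusted p = 0.171), nor under any of the 16 alternatives. Without the second Lurasidone library it was -0.29 (limma adjusted p = 0.357).

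Within each library, crx was also compared with otx5. The ratio of crx to otx5 was 0.841, 0.938 and 0.845 in the control libraries, against 0.389, 0.514 and 0.508 in the Lurasidone libraries. The groups did not overlap in this ratio, and the log2 difference was -0.90. The two-sided exact permutation test gave p = 0.1, the smallest that 3 libraries against 3 allow. It was 1 of 6 ratios computed, all chosen after the values had been seen, and its Benjamini-Hochberg adjusted p over the 6 was 0.6.

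The opsin gene exorh lies on chromosome 8 at 54302700 to 54304381 on the minus strand. It is related to the rod gene rho and serves as a marker of pineal photoreceptors. The control libraries held 9.11, 5.21 and 7.59 FPKM (174, 76 and 137 fragments), and the Lurasidone libraries 4.34, 2.28 and 3.16 FPKM (72, 38 and 52 fragments). All 3 Lurasidone values lay below the lowest control value, by at least 0.876 FPKM. The means were 7.30 ± 1.96 and 3.26 ± 1.03 FPKM (SD, n = 3), and the log2 fold change was -0.96 (SE 0.24, 95% interval -1.49 to -0.43, limma adjusted p = 0.0346). This call was less stable than that of crx and held under 10 of the 16 alternatives. It was lost without the first control library (log2 fold change -0.81, limma adjusted p = 0.138), the third control library (-0.92, 0.0649), the second Lurasidone library (-0.79, 0.109) or the third Lurasidone library (-0.96, 0.0942).

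A gene model without a symbol lies 411 bases from exorh on the other strand, and its values varied widely within both groups. They were 11.4, 13.03 and 5.03 FPKM in the control libraries, against 4.27, 2.04 and 6.20 FPKM in the Lurasidone libraries, so the groups overlapped. It was named after its values had been seen.

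The rod pigment gene rho stood at 2703, 1647 and 1802 FPKM in the control libraries, against 1552, 521 and 1307 FPKM in the Lurasidone libraries. All 3 Lurasidone values were below the control values, and the log2 fold change of rho, -0.97, was close to that of exorh but did not pass in limma (adjusted p = 0.152). It passed in voom (-0.97, adjusted p = 0.0475). The level of exorh was 0.337, 0.316 and 0.421% of that of rho in the control libraries, against 0.280, 0.438 and 0.242% in the Lurasidone libraries. These ranges overlapped (log2 difference -0.20, two-sided exact permutation p = 0.5, n = 3 per group), and with 3 libraries a group the test could not have gone below 0.1.

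Of the enzymes, asmt encodes ASMT, the last step of melatonin synthesis, and lies on chromosome 9 at 55730059 to 55744713 on the minus strand. Its level was 4.18, 5.75 and 3.59 FPKM in the control libraries (79, 83 and 64 fragments). In the Lurasidone libraries it was 0.974, 3.28 and 1.72 FPKM (16, 54 and 28 fragments). The groups did not overlap, but the second Lurasidone library came within 0.308 FPKM of the lowest control library. The means were 4.51 ± 1.12 and 1.99 ± 1.17 FPKM (SD, n = 3). The log2 fold change of -0.93 (SE 0.28, 95% interval -1.56 to -0.31) missed the threshold in limma (adjusted p = 0.0645) and in voom (-1.29, adjusted p = 0.0576). Without the second Lurasidone library it passed, at -1.23 (limma adjusted p = 0.0334). The paralog asmt2 was listed at 0 in all 6 libraries.

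The pineal enzyme gene aanat2 lies on chromosome 3 at 54887782 to 54893706 on the plus strand. Its level was low in both groups, 1.48, 2.65 and 2.43 FPKM in the control libraries, against 2.38, 1.86 and 0.731 FPKM in the Lurasidone libraries. The groups overlapped, and the third Lurasidone library, with 14 fragments, was the lowest of all 6. Its counting interval of 0.400 to 1.23 FPKM did not reach that of the first Lurasidone library, 1.74 to 3.18 FPKM, so these libraries of the same group differed by more than counting error. The means were 2.19 ± 0.620 and 1.66 ± 0.843 FPKM (SD, n = 3). The log2 fold change was -0.30 (95% interval -0.90 to 0.30, limma adjusted p = 0.5), and without the third Lurasidone library it was -0.02 (0.974). The voom interval, -1.44 to 0.47, took in both 0 and the voom log2 fold change of exorh, -1.19.

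The retinal enzyme gene aanat1 lies on chromosome 6 at 23616893 to 23619428 on the minus strand. It stood at 1.70, 1.69 and 1.88 FPKM in the control libraries, against 0.651, 1.67 and 1.64 FPKM in the Lurasidone libraries. The groups were apart by only 0.026 FPKM, which is less than the value of 1 fragment (0.0404 to 0.0530 FPKM). The first Lurasidone library alone was low, with 14 fragments against 32 to 44 in the other libraries. The means were 1.76 ± 0.108 and 1.32 ± 0.580 FPKM (SD, n = 3). The log2 fold change was -0.28 (95% interval -0.77 to 0.21, limma adjusted p = 0.426), and without the first Lurasidone library it was -0.05 (0.887).

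**Figure D2:**
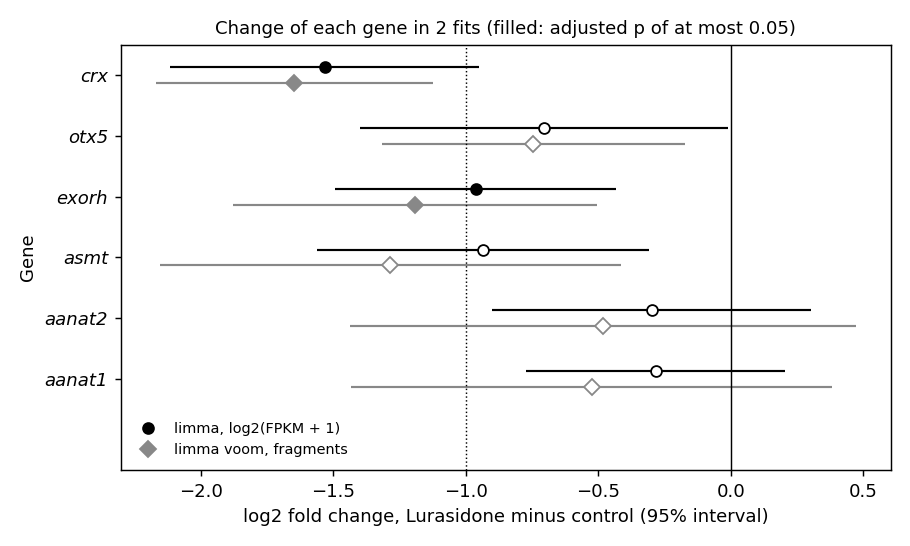
Log2 fold change (Lurasidone minus control) of each gene with its 95% interval in limma on log2(FPKM + 1) and in voom on fragments, filled where the adjusted p was at most 0.05. The solid line marks 0 and the dotted line marks -1. Only crx (-1.53 and -1.65) and exorh (-0.96 and -1.19) are filled, and the intervals of aanat1 and aanat2 cross 0.

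The order of the levels per length was the same in both groups: otx5, crx, exorh, asmt, aanat2 and aanat1. In the control group the ranges of otx5 and crx overlapped, as did those of exorh and asmt, and those of aanat2 and aanat1. The ranges of crx and exorh did not overlap there, nor did those of asmt and aanat2. The summed level of the 6 genes was between 68.3 and 81.3 FPKM in the control libraries and between 24.4 and 45.1 FPKM in the Lurasidone libraries, and most of it came from otx5 and crx.

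The 6 genes did not share the library in which they were lowest. In the second Lurasidone library crx stood at 19.0% of the control mean, exorh at 31.2% and otx5 at 32.2%, and for each of these it was the lowest of the Lurasidone libraries. In the same library asmt stood at 72.7%, aanat2 at 84.9% and aanat1 at 94.9% of the control mean. The first Lurasidone library was the lowest for asmt (21.6%) and aanat1 (37.0%), and the third for aanat2 (33.4%). The enzymes therefore had their lowest Lurasidone values in other libraries than the opsin and the transcription factors, and no order was common to all enzymes. These lowest values came from 16 fragments for asmt and from 14 each for aanat1 and aanat2. The second Lurasidone library was also the lowest Lurasidone library for genes outside the 6. Among them were slc1a2b (206, 76.2 and 177 FPKM in the Lurasidone libraries) and col2a1a (214, 94.3 and 200 FPKM). For others, such as krt4 (179, 331 and 119 FPKM), it was the highest.

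**Figure D3:**
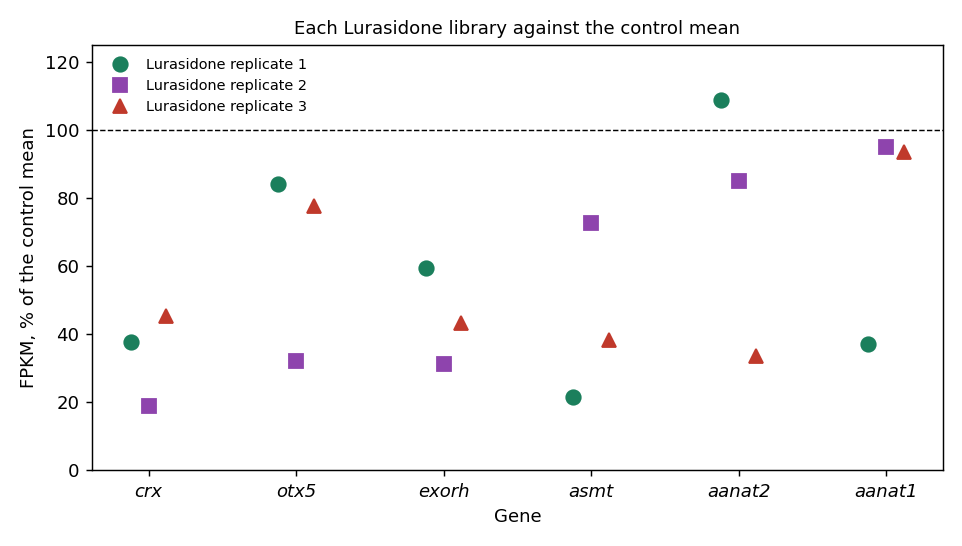
FPKM of each gene in the 3 Lurasidone libraries, as a percent of the mean of the 3 control libraries. Every crx point lies under 50% (19.0 to 45.3%), while aanat2 ranges from 33.4 to 108.8%.

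Over the 6 libraries, which share the contrast of the groups, the Pearson correlation of log2(FPKM + 1) was 0.913 between exorh and crx, 0.881 between otx5 and crx, and 0.855 between exorh and otx5. It was 0.767 between aanat1 and asmt. The gene aanat2 had correlations between -0.222 and 0.304 with the other 5. Its ratio to exorh was 0.163, 0.509 and 0.320 in the control libraries, against 0.549, 0.814 and 0.231 in the Lurasidone libraries, which overlapped (two-sided exact permutation p = 0.4, n = 3 per group). The same exact test was run on the ratios of asmt to exorh (p = 1.0), of asmt to aanat2 (p = 0.5) and of aanat2 to aanat1 (p = 1.0). With 3 libraries a group it could not have gone below 0.1, so it cannot show that these ratios stayed the same.

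The protein-coding genes with the most similar pattern over the 6 libraries were taken by the highest correlation, 3 for each gene. For crx they were camk2g1 (r = 0.997), man2a2 (0.996) and thoc3 (0.995), for otx5 kat6a, dscamb and gak (each 0.997), and for exorh trim33 (0.995), homezb and kdm6a (each 0.994). For asmt they were cpo (0.997), ercc4 (0.993) and vps16 (0.991). For aanat1 they were micu3a (0.994), mast3b (0.989) and ptger1b (0.986), and for aanat2 coa3b (0.984), prrx1a (0.984) and sdhaf4 (0.982). None of these 18 genes passed the limma test, and with 6 libraries and over 23409 genes such values are a description only.

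Upstream of AANAT, the genes that form serotonin did not pass the test in either direction. Of tph1a, tph1b, tph2 and ddc, 2 had enough FPKM to be tested in limma, and 0 passed, with 1 higher and 1 lower at an unadjusted p of at most 0.05 and 0 of 4 passing in voom. The tryptophan hydroxylase gene tph1a was at 0.296, 0.259 and 0.662 FPKM in the control libraries, against 1.51, 1.32 and 0.764 FPKM in the Lurasidone libraries. These groups did not overlap, with the higher values in Lurasidone (log2 fold change 0.64, limma adjusted p = 0.084). As a low gene it is understated on this scale: the ratio of the Lurasidone to the control mean was 2.96, and the voom log2 fold change was 1.57 (adjusted p = 0.0865). The decarboxylase gene ddc was at 7.61, 11.1 and 7.62 FPKM in the control libraries, against 4.56, 5.87 and 6.03 FPKM in the Lurasidone libraries. Here too the groups were apart, with the lower values in Lurasidone (-0.58, limma adjusted p = 0.084). The hydroxylase genes tph1b (0.359 to 0.444 FPKM in control, 0.379 to 2.16 in Lurasidone) and tph2 (0.192 to 0.279 and 0.269 to 0.805) lay under the filter.

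Downstream, 3 of the 6 melatonin receptor genes were tested, 0 passed in limma, 0 had an unadjusted p of at most 0.05, and 0 of 6 passed in voom. The log2 fold changes were 0.03 for mtnr1al, 0.00 for mtnr1bb and 0.15 for mtnr1c, with limma adjusted p of 0.947, 0.998 and 0.666. The signs of mtnr1al and mtnr1bb turned with quantile normalization, and that of mtnr1c turned without the first Lurasidone library. The genes mtnr1aa, mtnr1ab and mtnr1ba lay under the filter.

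Of 20 other genes known from the pineal, 17 were in the table and 11 were tested. In limma 1 passed, neurod1, a transcription factor gene of many neurons and photoreceptors, while 4 were lower and 0 higher at an unadjusted p of at most 0.05. It stood at 55.4, 49.9 and 58.5 FPKM in the control libraries, against 36.4, 37.9 and 31.5 FPKM in the Lurasidone libraries, with no overlap. It fell (log2 fold change -0.62, limma adjusted p = 0.036). The call was lost when any library but the second control library was left out (limma adjusted p 0.0573 to 0.133). In voom 3 of 16 passed, all lower: neurod1, the LIM homeodomain gene lhx4 and the transducin subunit gene gnb3a. The level of lhx4 was 9.15, 6.81 and 6.37 FPKM in the control libraries, against 4.07, 2.38 and 5.37 FPKM in the Lurasidone libraries, with no overlap (-0.98 in voom, adjusted p = 0.0311, and -0.81 in limma, 0.0667). The gene gnb3a, under the limma filter, had 13, 7 and 52 fragments in the control libraries, against 3, 2 and 0 in the Lurasidone libraries, at the limit of detection (voom adjusted p = 0.0317). The groups were also apart with lower Lurasidone values for nr2e3 (-0.97, limma adjusted p = 0.0806, voom 0.0545) and grk1a (-0.74, 0.158 and 0.078). Of the 11 tested in limma, 5 were apart with lower values, against 16.2% of all tested genes, and 0 with higher values. The median limma log2 fold change of the 11 was -0.13, with 9 below 0 and 2 above, tmtopsb (0.28) and col14a1b (0.49). The opsin genes parapinopsinb (-0.07), valopa (-0.02) and tmtops2b (-0.03) lay near 0, with foxd3 at -0.13 and gfi1ab at -0.42. None of these passed in limma. The other genes of the OTX family, otx1, otx2a and otx2b, had log2 fold changes of -0.44, -0.63 and -0.49, and 0 of 3 passed in limma or voom, while all 3 had an unadjusted p of at most 0.05. Of the neighbouring parapineal and habenula, 8 of 10 genes were tested and 1 passed, the habenular transcription factor gene pou4f1, which fell (-0.79, limma adjusted p = 0.024). That call was lost without the first control library (0.103), the second Lurasidone library (0.071) or the third (0.0775).

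**Figure D4:**
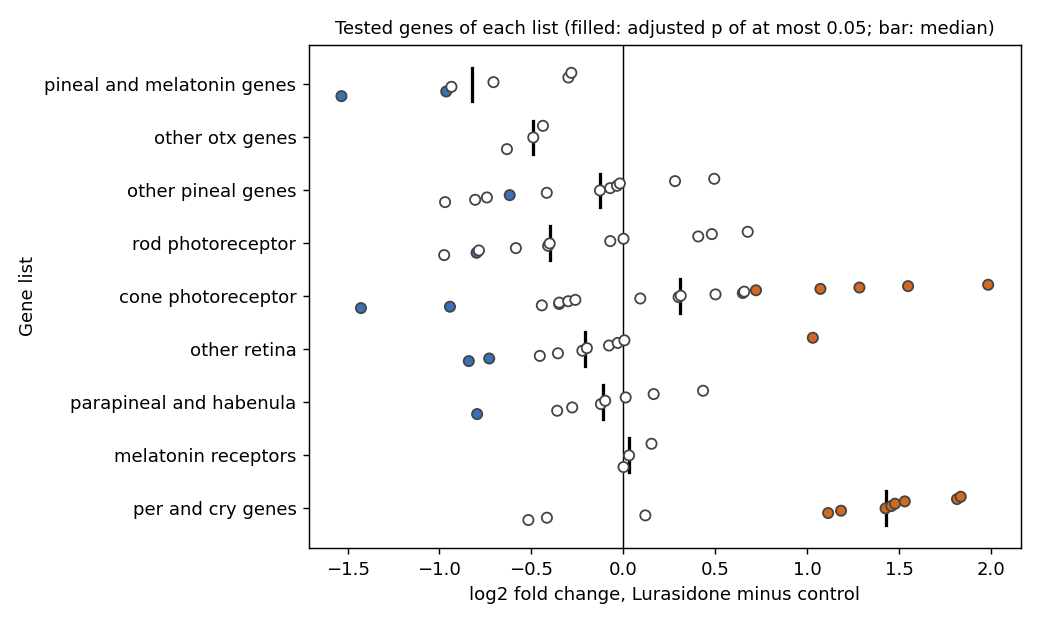
Log2 fold change (Lurasidone minus control) of the tested genes of each list, 1 point a gene, filled at an adjusted p of at most 0.05, with the median as a bar. The median of the 6 pineal and melatonin genes is -0.82, that of the other pineal genes -0.13, that of the rod genes -0.40, that of the cone genes 0.31 and that of the per and cry genes 1.43.

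Crx and otx5 are also transcribed in the retina, so the levels of retinal genes stood beside those of the pineal genes. The summed level of 12 rod genes, nearly all of it rho, was 2992, 1991 and 2082 FPKM in the control libraries, against 1825, 737 and 1551 FPKM in the Lurasidone libraries. As for crx, otx5 and exorh, the second Lurasidone library was the lowest. Of 11 rod genes tested in limma, 0 rose and 1 fell, saga, an arrestin gene (-0.80, limma adjusted p = 0.015, and 0.0538 without the third Lurasidone library). At an unadjusted p of at most 0.05, 5 were lower and 2 higher, and in voom 3 of 12 passed with lower and 1 with higher values. The groups were apart with lower Lurasidone values for the outer segment genes rom1b (log2 fold change -0.79) and prph2b (-0.58), and with higher ones for the phosphodiesterase subunit genes pde6gb (0.68) and pde6a (0.48), with limma adjusted p between 0.0715 and 0.126. The rod transducin gene gnat1 lay between 37.0 and 46.1 FPKM in control and between 38.8 and 42.2 FPKM in Lurasidone, and the rod marker gngt1 was listed at 0 in 5 of the 6 libraries. Of 18 cone genes tested, 6 rose and 2 fell, with the cone arrestin genes arr3b (1.55) and arr3a (1.28) and the phosphodiesterase subunit gene pde6ha (1.07) among those that rose, while the transducin subunit gene gngt2b (-1.43) and the green opsin gene opn1mw1 (-0.94) fell. The call of pde6ha was lost without the first control library (limma adjusted p = 0.0565) and that of gngt2b without the second Lurasidone library (0.0509). The summed cone level was 4299 to 5086 FPKM in control and 3356 to 3393 FPKM in Lurasidone, most of it opn1sw1, opn1mw1 and gngt2b. The median log2 fold change of the 18 tested cone genes was 0.31. The call of opn1mw1 was lost without the first control library or any single Lurasidone library (limma adjusted p 0.084 to 0.143).

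Genes of the other retinal neurons and support cells summed to 85.7 to 95.3 FPKM in control and 75.9 to 97.8 FPKM in Lurasidone, with 1 gene higher and 2 lower of 10 tested: rpe65a of the pigment epithelium rose (1.03), and the Müller glia gene rlbp1a (-0.73) and the bipolar cell gene vsx1 (-0.84) fell. Genes of brain neurons and glia summed to 970 to 1045 FPKM in control and 779 to 889 FPKM in Lurasidone. Of this, the gene slc1a2b alone held 228 to 250 FPKM in control and 76.2 to 206 FPKM in Lurasidone. Of the 14 brain genes, 0 were higher and 1 was lower, the glutamate transporter gene slc17a6a (-0.67). The 20 genes of other larval tissues summed to 9756 to 16474 FPKM in control and 12045 to 13835 FPKM in Lurasidone, most of it actc1b. Of 18 tested, 1 was higher and 2 were lower: the pancreatic cpa5 rose (0.92), and the globin gene hbbe1.1 (-1.27) and the apolipoprotein gene apoa1a (-1.66) fell. Some of these calls were lost with 1 library left out (limma adjusted p 0.0504 to 0.114). That of rpe65a was lost for each library but the second Lurasidone library, that of vsx1 for each but the third Lurasidone library and that of slc17a6a for each but the third control library. The call of cpa5 was lost for the first control library and for each Lurasidone library, and that of rlbp1a for the first control or the third Lurasidone library. The part of these other cell types in the levels of crx, otx5 and exorh was not tested.

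The gene aanat2 is a known output of the circadian clock, and most genes named per or cry moved in these libraries while aanat2 did not pass the test. With 14 to 51 fragments a library, its voom interval (-1.44 to 0.47) was wide, so a change of aanat2 was not excluded. Of 11 per and cry genes, 8 rose and 0 fell in limma, led by cry5 (1.84), per1a (1.82) and cry2 (1.48), and 2 had lower values at an unadjusted p of at most 0.05. The light-inducible clock gene per2 stood at 16.1, 16.2 and 15.2 FPKM in the control libraries, against 53.9, 37.2 and 53.9 FPKM in the Lurasidone libraries. The summed per and cry level was 119 to 131 FPKM in control and 219 to 251 FPKM in Lurasidone. With 1 collection age and no clock time given, a difference in level and a shift of phase cannot be told apart.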

How the data were processed

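RNA of zebrafish larvae was sequenced from 3 control and 3 Lurasidone libraries, grouped by the sample labels. The authors deposited 1 table of FPKM values with gene lengths and positions. The submitters' processing notes name GRCz11 (danRer11), and the aligner, the counting tool and its use of strand were not given in the sources used here. Multiplied by gene length, the FPKM values of a library came in whole steps of a fixed size (100% of values within 0.05 fragments), which gave fragments and exact 95% Poisson intervals that cover counting error only. Fragments summed to between 84.5 and 104% of the FPKM denominators, so the authors' values hold a scaling between libraries. The table had 0 columns of unknown samples.

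Log2(FPKM + 1) was fitted with limma 3.58.1 (eBayes with trend, group only) in R 4.3.3, and p-values were adjusted over all tested genes. Ratios within a library were tested between groups by exact two-sided permutation in scipy 1.17.1. Correlations used numpy 2.4.6 and figures matplotlib 3.10.9. The scripts were tested on simulated data. The 16 alternatives were median-ratio scaling, a pseudocount of 0.1, a minimum of 1 FPKM, no minimum, quantile normalization, no trend, the replicate number as a block, voom with the denominators or the summed fragments as library sizes, protein-coding genes only, and leaving out each library. A log2 fold threshold of 1 on the main fit was also applied and is not among the 16.

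The 6 genes and the gene lists were chosen with earlier results of these data known. All 6 genes, all serotonin synthesis and melatonin receptor genes, rho, asmt2, the 3 genes most like each of the 6, and up to 3 called genes per list and direction were to be named. The genes bsx, parapinopsina, agrp2, lhx4, gnb3a, nr2e3, grk1a, gnat1, gngt1, rom1b, prph2b, pde6gb, pde6a, opn1sw1, slc1a2b, col2a1a, actc1b, krt4, prss1, fabp10a, mylpfa, krt5, otx1, otx2a, otx2b and per2 were named for other reasons, with their values known. So were parapinopsinb, valopa, tmtops2b, foxd3, gfi1ab, tmtopsb and col14a1b. No sequence is shown, since no genome was used.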

Additional observations from a re-analysis of the deposited data

How the results depend on the processing

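Of the 6 genes, 2 had passed with lower values. With no filter on low values, with voom on summed fragments and with the log2 fold threshold of 1, the count was 1, and with single libraries left out it was 1 to 2, while 0 genes passed with higher values in each of these. The gene lost was exorh, whose log2 fold change was -0.96 with no filter (limma adjusted p = 0.0842), -1.10 with voom on summed fragments (0.0510), and -1.16 to -0.79 with single libraries left out. That of asmt was -1.23 to -0.67 with single libraries left out. With no filter the p-values were adjusted over 32111 genes, which changed no fold change. The unadjusted limma p of exorh was then 0.0061, against 0.0025 with the filter. With the fold threshold, exorh at -0.96 did not reach -1. Why the call was lost in the other cases, and with no filter, was not tested. Over all genes, 914 were lower and 1356 higher; the counts were 431 and 899 with no filter and 161 to 1369 and 506 to 1383 with single libraries left out.

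With the replicate number as a block, asmt passed (-0.93, limma adjusted p = 0.0495), so 3 of the 6 were lower, and 497 genes were lower and 869 higher over all genes. The deviations of same-numbered libraries correlated at 0.118, -0.103 and 0.00564, and not every library correlated best with its own number. With so few libraries in a group, these correlations cannot show whether the numbers pair the samples.

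Of 669 values of 42 other named genes, 607 kept direction and side of the threshold, 47 lost a call, 2 gained one and 13 changed sign. The sign changes were all in genes that did not pass. They were mtnr1al (-0.037 with quantile normalization, -0.12 to 0.22 with single libraries left out), mtnr1bb (-0.0021 with median-ratio scaling, -0.0603 with quantile normalization, -0.12 to 0.20 with single libraries left out), and, with single libraries left out, mtnr1c (-0.0136 to 0.26), mast3b (-0.17 to 0.00032), ptger1b (-0.31 to 0.025) and coa3b (-0.64 to 0.067). The depth of 14 to 51 fragments a library limits aanat1 and aanat2.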
